A study of Mus musculus with 20 samples.

Results

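10 libraries of SCCVII tumors were compared by their T cell content, whatever the treatment. SCCVII is a mouse head and neck squamous cell carcinoma line, grown here under the skin of immunocompetent C3H/HeOuJ mice. Of 20 RNA-seq libraries in 10 groups of 2 (replicates A and B), the 16 without anti-CD8 treatment were ordered by the level of Cd3e, a chain of the CD3 complex, and the 5 highest were set against the 5 lowest. The T cell-rich libraries were anti-PD-1 + anti-CTLA-4 B, the triple treatment (APG-157 with both checkpoint antibodies) A, anti-CTLA-4 A, anti-PD-1 + anti-CTLA-4 A and APG-157 + anti-PD-1 A. The T cell-poor libraries were control A, the triple treatment B, APG-157 A, APG-157 B and anti-CTLA-4 B. APG-157 is a botanical preparation from Curcuma longa that contains curcumin and was given by mouth. Anti-PD-1 and anti-CTLA-4 are antibodies that block inhibitory receptors of T cells, and anti-CD8 removes CD8+ T cells. All mice carried the same tumor line. The 10 libraries not chosen were the 6 in the middle of the order (anti-PD-1 A and B, APG-157 + anti-CTLA-4 A and B, control B and APG-157 + anti-PD-1 B) and the 4 given anti-CD8, alone or in combination with APG-157 + anti-CTLA-4 (below, the anti-CD8 combination). The submitters' labels leave it unstated if replicates A and B of a group are separate tumors, so a p-value here covers no more than how these libraries vary, which may be technical.

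T cells recognise peptides held by major histocompatibility complex (MHC) molecules through a T cell receptor that signals through the CD3 chains. Activated T cells secrete interferon gamma, which induces guanylate-binding proteins, chemokines such as Cxcl9 that draw further T cells, the MHC genes and the checkpoint ligand PD-L1. Tumors are known to differ widely in how many T cells they hold, and those with many T cells tend to show this interferon gamma program.

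Because the libraries were selected on Cd3e, the differences between the 2 sets are a description and are given without p-values. A gene is "called" below where edgeR's quasi-likelihood model gave an adjusted p under 0.05 in the 5 against 5 contrast, which is used only to sort genes. Values are counts per 1e6 counts of each library's total (CPM), fold changes are on the log2 scale with their standard error, and spreads are SD with n = 5 per set. In bulk RNA, fewer cells of a type and less RNA per cell cannot be told apart.

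Stretches upstream of 4 genes are shown first because the interferon gamma and MHC class II groups, described further on, moved as whole groups. They are the 150 bases before the annotated start (RefSeq, GRCm38.p6, an earlier build than the GRCm39 of the counts), written along the strand of the gene. In Gbp2 and Igtp, capitals mark GAAA followed by any 2 bases and GAAA, the core of an interferon-stimulated response element. In H2-Aa and H2-Eb1 they mark ATTGG, the letters of the Y box of class II promoters. A match on the opposite strand is marked as its reverse complement, as TTTCACTTTC in Gbp2 and CCAAT in H2-Eb1.
Gbp2 (chr3:142620513-142620662, plus strand): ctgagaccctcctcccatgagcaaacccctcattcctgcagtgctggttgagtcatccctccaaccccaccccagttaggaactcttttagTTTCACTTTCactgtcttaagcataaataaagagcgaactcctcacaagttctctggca
Igtp (chr11:58199406-58199555, plus strand): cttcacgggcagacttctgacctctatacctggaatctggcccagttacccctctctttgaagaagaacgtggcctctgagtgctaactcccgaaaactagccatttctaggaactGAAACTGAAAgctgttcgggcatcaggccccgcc
H2-Aa (chr17:34287824-34287973, minus strand): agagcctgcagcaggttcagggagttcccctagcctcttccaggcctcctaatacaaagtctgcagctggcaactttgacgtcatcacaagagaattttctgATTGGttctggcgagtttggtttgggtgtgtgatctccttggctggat
H2-Eb1 (chr17:34305717-34305866, plus strand): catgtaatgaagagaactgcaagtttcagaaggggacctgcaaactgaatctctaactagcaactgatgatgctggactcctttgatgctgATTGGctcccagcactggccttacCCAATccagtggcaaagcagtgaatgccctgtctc
Both motifs were searched on both strands in the 250 bases before the start, where a match of one could overlap a match of the other. The interferon motif was present for 10 of the 14 interferon gamma response genes with a promoter in the table and for 6 of 12 type I interferon response genes, against 3.46% of 27025 genes. ATTGG was present for 7 of 8 MHC class II genes and 8 of 11 class I genes, against 37.5% of all genes. It was also present for 7 of 14 interferon gamma and 5 of 12 type I interferon response genes. These are matches of letters and were not tested as binding sites.

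Cd3e was at 48.0, 36.0, 31.9, 28.7 and 20.5 CPM in the T cell-rich libraries, in the order in which they are named above. In the T cell-poor libraries, in their order, it was at 4.61, 3.54, 1.42, 1.05 and 0.992 CPM. The lowest rich library was followed by anti-PD-1 B at 10.3 CPM, and the highest poor library was preceded by APG-157 + anti-PD-1 B at 6.08 CPM. The 6 libraries between the sets thus lay from 6.08 to 10.3 CPM, and the 4 anti-CD8 libraries from 1.02 to 3.93 CPM. Behind these values were 58 to 2778 counts of Cd3e per library of the sets, in libraries whose totals were 43.9 to 59.0 in units of 1e6 counts. Ordering by Cd3e on TMM-scaled library sizes, or by the mean of the 6 other CD3 and receptor genes, gave the same 5 and 5 libraries.

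**Figure D1:**
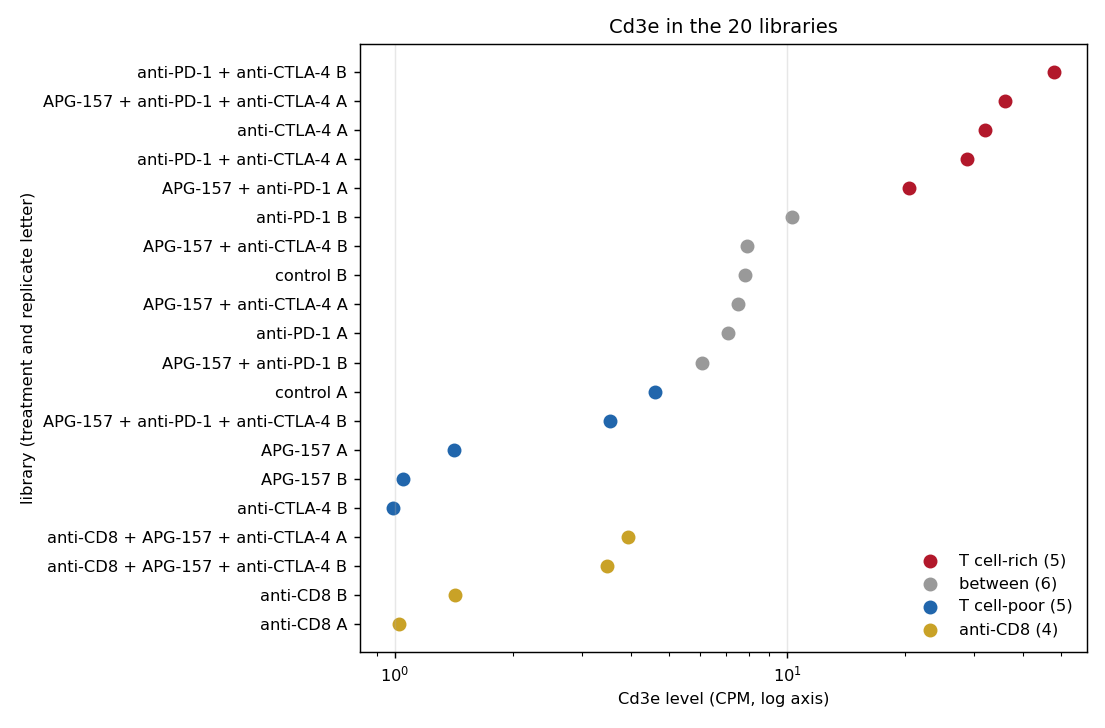
Cd3e level of each of the 20 libraries in CPM (log axis), 1 point per library, colored by set. The rich libraries lie from 20.5 to 48.0 CPM, the poor ones from 0.992 to 4.61 CPM, and anti-CTLA-4 A and B lie in opposite sets.

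Each set mixed treatments. Libraries A and B of anti-CTLA-4 fell in opposite sets (31.9 and 0.992 CPM of Cd3e), as did those of the triple treatment (36.0 and 3.54 CPM). Anti-PD-1 was given in 4 of 5 rich and 1 of 5 poor libraries, anti-CTLA-4 in 4 and 2, and APG-157 in 2 and 3. Replicate A made up 4 of 5 rich and 2 of 5 poor libraries. What libraries of 1 letter share is not given.

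Over all 16 libraries, Cd3e was tested against each agent, 8 libraries with and 8 without. With anti-PD-1 its level was 3.54 to 48.0 CPM (median 15.4), and without it 0.992 to 31.9 CPM (median 6.07). This is a mean difference of 1.70 in log2(CPM + 0.1), with p = 0.0491 in an exact two-sided permutation test and 0.147 after Benjamini-Hochberg adjustment over the 3 agents. For anti-CTLA-4 the difference was 1.16 (exact permutation p = 0.19, adjusted p = 0.284). For APG-157 it was -0.78 (exact permutation p = 0.372, adjusted p = 0.372). With and without each agent the ranges of Cd3e overlapped, and none of the 3 differences passed the adjusted threshold. Without library anti-CTLA-4 A, the difference for anti-PD-1 was 2.11 and passed it (exact permutation p = 0.0137, adjusted p = 0.041).

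Across all genes, 16922 passed the low-count filter, of which 1032 (6.1%) were called higher and 413 (2.44%) lower in the T cell-rich libraries. The directions differed in size. A log2 fold change over 2 was reached by 271 of the genes called higher and by 4 of those called lower. In 954 genes (5.64%) every rich library lay above every poor one, and in 650 (3.84%) every rich library lay below. The median log2 fold change of all genes was -0.00. The counts depended on single libraries: without anti-PD-1 + anti-CTLA-4 B, 654 genes were called higher and 94 lower, and the number called lower fell to between 150 and 258 without the triple treatment A or B, APG-157 A or anti-CTLA-4 A. Of 170 called genes of the lists and of the largest differences, 141 were called in each of the 10 fits with 1 library left out. Where a gene named below was not, the number of these 10 fits that called it is given.

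The label of the sets held for the other chains of the T cell receptor complex. Cd3e itself and 5 of the 6 other members measured were called higher, against 6.1% of all genes. Since Cd3e chose the libraries, nothing is read from this share or from those of the lists that follow. Cd3d was at 18.5, 12.2, 13.8, 11.3 and 7.41 CPM in the rich libraries and at 1.69, 1.18, 0.401, 0.61 and 0.53 CPM in the poor ones, a log2 fold change of 3.87 (SE 0.42). No poor library came near the lowest rich one. The signaling chain Cd247 had a log2 fold change of 3.10 (SE 0.32) and Cd3g of 3.77 (SE 0.42). For the receptor's constant regions, the difference was 3.45 (SE 0.47) for Trac and 2.39 (SE 0.49) for Trbc1. Trbc2 was not called, at 44.9 ± 8.595 CPM against 32.4 ± 14.2 CPM (log2 fold change 0.48, SE 0.26), and its sets overlapped. Trbc1 and Trbc2 are near-identical in sequence, so the split of reads between them is uncertain.

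All 20 genes of T cell signaling and coreceptors were called higher and did not overlap between the sets, with a median log2 fold change of 2.80. Cd8a, the coreceptor of cytotoxic T cells, was at 56.5, 44.4, 31.6, 27.1 and 26.3 CPM in the rich and 5.72, 4.05, 1.53, 0.61 and 0.77 CPM in the poor libraries. Its log2 fold change was 3.91 (SE 0.65), the largest of this list. Cd4, the coreceptor of helper T cells, was at 10.8 ± 2.38 against 1.87 ± 1.17 CPM (log2 fold change 2.54, SE 0.39). The kinase Lck, which starts receptor signaling, was at 28.1 ± 7.93 against 4.16 ± 1.39 CPM (2.78, SE 0.26). The smallest difference among the 4 most abundant genes of the list was that of Thy1, which fibroblasts also express, at 1.79 (SE 0.28). Of 8 genes of naive and central memory T cells, 5 were called higher and the median was 0.98. Satb1 had the largest value of these (2.19, SE 0.28), while Tcf7, a transcription factor of naive and stem-like T cells, stood at 8.57 ± 1.15 against 9.92 ± 1.504 CPM and was not called.

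Among 18 genes of cytotoxic effectors 14 were called higher, with a median of 2.30, and 13 did not overlap between the sets. Ifng, which encodes interferon gamma, was at 11.4, 9.19, 5.94, 3.93 and 2.95 CPM in the rich libraries and at 0.562, 0.59, 0.401, 0.101 and 0.137 CPM in the poor ones. All 5 rich libraries lay above the poor ones, with a log2 fold change of 4.25 (SE 0.57). Gzmk, a granzyme of memory-type effector cells, had the largest difference of the list (4.48, SE 0.62), at 4.97 ± 1.98 against 0.228 ± 0.210 CPM. Gzmb and Prf1, a granzyme and the pore-forming perforin, were at 44.5 ± 24.4 against 8.79 ± 5.55 CPM and at 44.5 ± 25.5 against 9.76 ± 6.203 CPM. In both genes the rich library of lowest Cd3e, APG-157 + anti-PD-1 A, stood lowest of its set. Its Gzmb level of 14.2 CPM lay within the range of the poor libraries, which reached 15.7 CPM in APG-157 A. With 1 library left out, Gzmb was called in 4 of 10 fits and Prf1 in 1 of 10. Gzma, Gzmm, Klrg1 and Xcl1 were the 4 members not called. Of 6 natural killer cell genes that passed the filter, of 8 listed, 3 were called higher, and Ncr1, an activating receptor that defines these cells, was at 5.41 ± 1.94 against 3.36 ± 1.55 CPM and was not called.

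Inhibitory receptors went the same way: 9 of 11 genes of T cell checkpoint and exhaustion were called higher, with a median of 1.56. Pdcd1, which encodes PD-1, was at 32.2, 23.7, 23.2, 21.3 and 14.02 CPM in the rich and at 3.76, 2.40, 0.965, 0.356 and 0.411 CPM in the poor libraries (log2 fold change 3.90, SE 0.65). Tox, a factor of exhausted T cells, was at 12.7 ± 4.16 against 0.954 ± 0.802 CPM (3.77, SE 0.59), and Lag3 at 13.98 ± 4.68 against 1.54 ± 0.788 CPM (3.21, SE 0.41). Havcr2, which myeloid cells also express, had a smaller difference of 0.90 (SE 0.18), and the ectoenzyme Entpd1 was not called (0.32, SE 0.16). Of 11 regulatory T cell genes tested, 7 were called higher, and the median was 1.73. Foxp3, their defining factor, was at 4.21, 2.56, 0.826, 4.44 and 2.64 CPM in the rich and at 1.58, 1.08, 0.692, 0.661 and 0.531 CPM in the poor libraries (1.73, SE 0.44). Its sets overlapped, since the rich library anti-CTLA-4 A lay below 2 of the poor ones, and it was called in 2 of 10 fits with 1 library left out. Tnfrsf18 (GITR) had the largest difference of this list (2.41, SE 0.27).

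The interferon gamma response was higher as a whole: all 20 genes were called and none overlapped between the sets, with differences from 0.98 to 3.94 and a median of 2.48. Cxcl9 was at 861, 473, 470, 481 and 273 CPM in the rich libraries and at 78.6, 42.0, 26.2, 29.4 and 13.96 CPM in the poor ones (3.79, SE 0.49). The lowest rich library thus stood well above the highest poor one, control A. Tgtp1, an interferon-induced GTPase, showed the largest difference of the list (3.94, SE 0.43). Igtp and Gbp2, whose upstream sequences are printed above, differed by 2.93 (SE 0.36) and 2.51 (SE 0.35), and Irf1 by 1.41 (SE 0.16). Irgm, Gbp and Tgtp genes have close relatives, so reads may be shared within these families. When all 16 libraries were used, the 8 of highest Cd3e against the 8 of lowest, 3 of the 20 genes were called.

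Type I interferon response genes differed less. Of 16 genes 2 were called higher, Oasl2 (1.07, SE 0.22) and Isg15, and the median was 0.68, although all 16 fold changes were positive. Ifit2, an antiviral gene that follows type I interferon, was at 77.2 ± 17.1 against 62.2 ± 19.6 CPM and was not called. The mean level of this list, in log2(CPM + 0.1), was 4.75 to 5.21 in the rich and 3.52 to 5.14 in the poor libraries, so the sets overlapped, with APG-157 A the highest of the poor ones. For the interferon gamma response the same mean was 6.28 to 7.50 against 3.51 to 4.90. The 2 lists were not tested against each other.

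**Figure D2:**
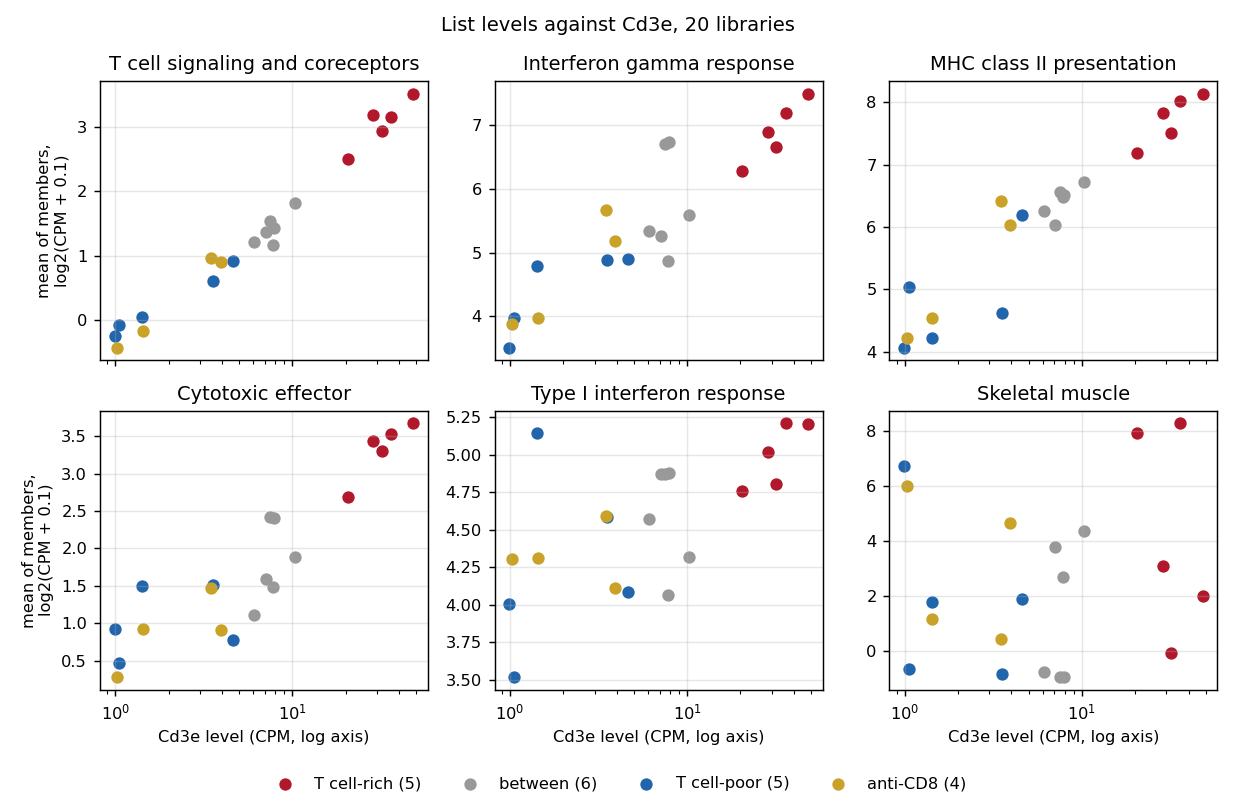
Mean of log2(CPM + 0.1) over the members of 6 gene lists against Cd3e (CPM, log axis), 1 point per library, 20 libraries. The T cell signaling list goes from -0.24 in the lowest poor library to 3.52 in the highest rich one, the interferon gamma list reaches 6.28 to 7.50 in the rich libraries against 3.51 to 4.90 in the poor ones, and the type I interferon and skeletal muscle lists overlap between the sets.

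Antigen presentation was higher for both classes of MHC. All 11 class II genes were called and did not overlap, with a median of 2.89. H2-Aa, a chain of the class II molecule, was at 2586, 2405, 1888, 2281 and 1300 CPM in the rich and at 545.9, 107.6, 64.8, 214.7 and 70.5 CPM in the poor libraries (3.42, SE 0.63). Control A was the highest poor library for this gene, and APG-157 A the lowest. Cd74, the invariant chain, differed by 3.31 (SE 0.61), H2-Eb1 by 3.45 (SE 0.63) and Ciita, the switch factor of class II transcription, by 3.10 (SE 0.61). With the 3 libraries of highest skeletal muscle level left out, H2-Aa, Cd74, H2-Eb1 and Ciita were not called. Among the class II genes, the smallest difference was that of the protease Ctss (1.29, SE 0.22). All 13 class I genes were also called without overlap, but with smaller differences from 0.46 to 1.93 and a median of 1.17. B2m, the shared light chain, was at 3999 ± 416 against 2289 ± 299 CPM (0.83, SE 0.11). H2-T23, a nonclassical class I gene, had the largest difference (1.93, SE 0.20), and the peptide transporter Tap1 differed by 1.83 (SE 0.22). The counts were estimated on a reference transcriptome while the mice were C3H/HeOuJ, so levels of polymorphic H2 genes depend on how well the alleles match.

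Of 9 chemokines for T cells that passed the filter, of 11 listed, 7 were called higher. Cxcl10, which binds the same receptor as Cxcl9, was at 124 ± 36.4 against 37.3 ± 16.7 CPM (1.76, SE 0.31), while Cxcl16 was not called (0.82, SE 0.24). Its receptor Cxcr6 showed the largest difference among 9 chemokine receptors, of which 4 were called, at 30.7 ± 9.11 against 3.91 ± 1.12 CPM (3.00, SE 0.25). Among 10 costimulatory ligands and partners tested, of 12 listed, 4 were called higher. They included both ligands of PD-1: Cd274 (PD-L1) was at 64.7 ± 32.9 against 9.06 ± 5.74 CPM (2.88, SE 0.57) and Pdcd1lg2 (PD-L2) at 3.80 ± 2.00 against 0.275 ± 0.185 CPM (3.81, SE 0.73). Neither ligand was called with an anti-CTLA-4 covariate, where 1 gene of this list was called higher. The poliovirus receptor Pvr, a ligand of Tigit, was at 19.0 ± 5.37 against 22.4 ± 2.69 CPM and was not called.

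**Figure D3:**
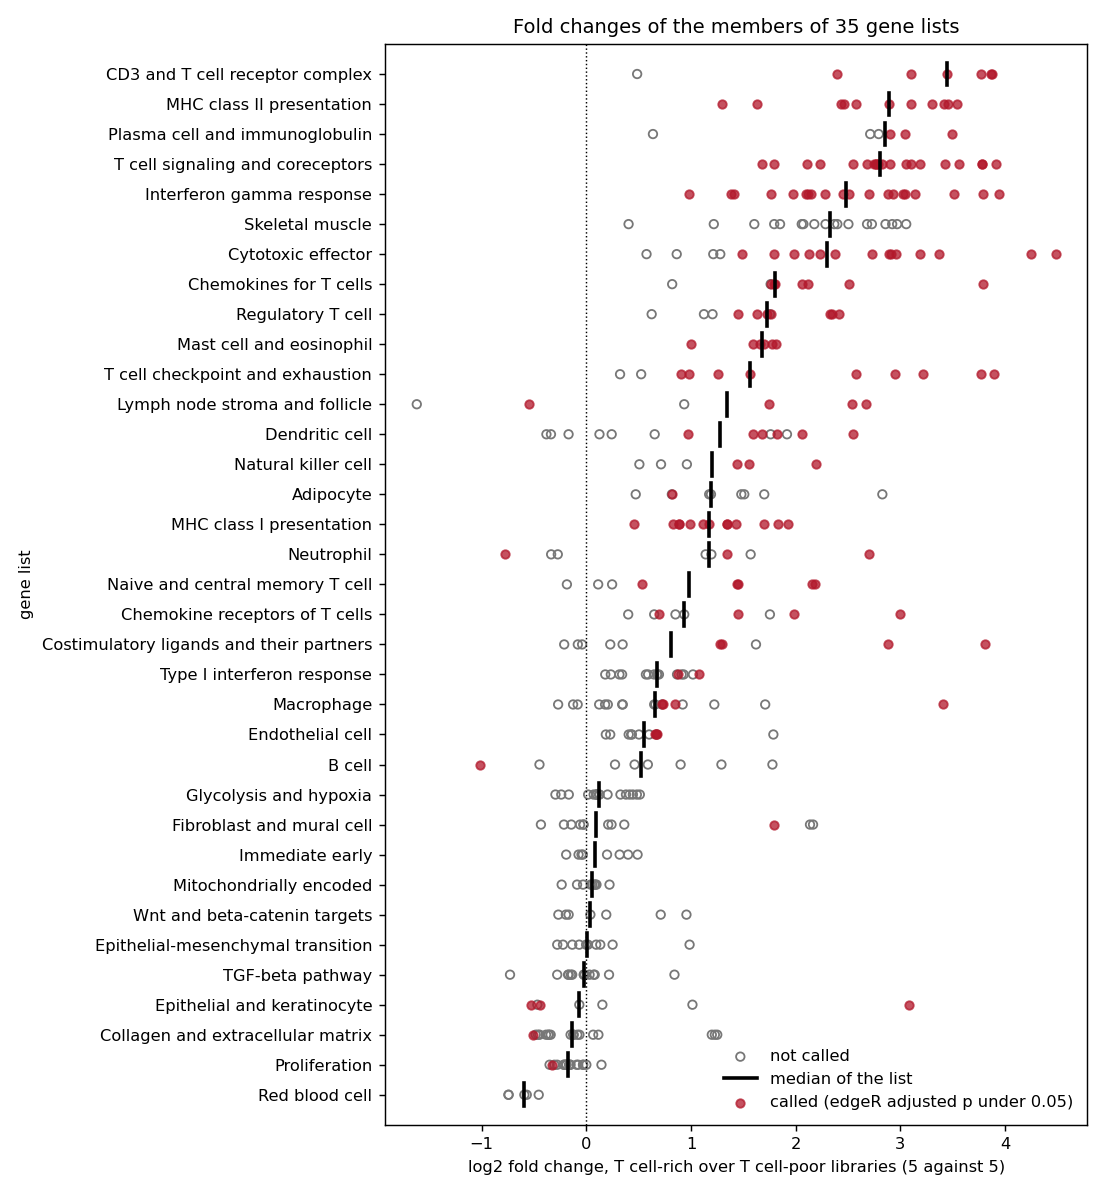
Log2 fold change of each member of 35 gene lists, T cell-rich over T cell-poor (5 libraries against 5), filled where called by edgeR, with the median of each list as a black bar. The T cell, MHC class II and interferon gamma lists lie to the right with nearly every member called, while the lists of matrix, proliferation, glycolysis and TGF-beta lie around 0, and the skeletal muscle list has a median of 2.33 with 0 of 18 members called.

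The myeloid lists were mixed. Of 18 macrophage genes 4 were called higher, and the median was 0.65. C1qa, a complement gene of tissue macrophages, was at 1093 ± 123 against 672 ± 207 CPM (0.73, SE 0.19; called in 3 of 10 fits with 1 library left out), while Csf1r, their growth factor receptor, was at 404 ± 67.9 against 378 ± 141 CPM and was not called. Acod1, the itaconate-producing enzyme of activated macrophages, was at 57.3 ± 28.6 against 5.54 ± 3.81 CPM (3.40, SE 0.61). Of 14 dendritic cell genes 6 were called higher, and Clec9a, a receptor of cross-presenting cells, had the largest difference, at 5.35 ± 3.26 against 0.935 ± 0.338 CPM (2.55, SE 0.47). Fscn1 and Wdfy4, among the most abundant of that list, were not called (-0.17, SE 0.11, and 0.24, SE 0.19). Of 8 neutrophil genes tested, of 12 listed, 2 were called higher and Mmp9 lower (-0.78, SE 0.14). Mast cell genes were called higher in all 6 members that passed the filter, of 10 listed with eosinophil genes, such as Cpa3, a protease of their granules, at 26.4 ± 6.51 against 8.85 ± 3.30 CPM (1.59, SE 0.31). With the 3 libraries of highest skeletal muscle level left out, 1 of these 6 was called, as were 1 of the 18 macrophage genes and 3 of the 14 dendritic cell genes.

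Of 8 B cell genes tested, of 12 listed, none was called higher and 1 lower, Bank1 (-1.01, SE 0.26). Bank1 was called in 3 of 10 fits with 1 library left out. Cd22, the most abundant, had the largest fold change of the list (1.78) and was not called. It was at 3.10 to 7.37 CPM in the rich and at 0.428 to 3.31 CPM in the poor libraries. Of the 8 fold changes 6 were positive, 4 genes had an unadjusted p under 0.05, and DESeq2 called 3. Ms4a1, which encodes CD20, was at 0.879 ± 0.426 against 0.742 ± 0.687 CPM. Immunoglobulin transcripts of plasma cells were higher in part: 3 of 6 tested, of 10 listed, were called, with Igkc at 26.4, 11.04, 10.3, 12.2 and 6.85 CPM in the rich and at 3.76, 1.83, 0.437, 1.59 and 0.667 CPM in the poor libraries (3.04, SE 0.60). Ighm, the most abundant, was not called (0.64, SE 0.34). Lymph node tissue was checked with 12 genes of its stroma and follicles, of which 6 passed the filter, 3 were called higher and 1 lower, with a median of 1.34. Its mean log2 level was -0.19 to 0.18 in the rich and -1.05 to -0.38 in the poor libraries, without overlap. The vessel genes Chst4, Madcam1 and Glycam1 had 0, 3 and 4 counts in all 5 rich libraries together, and 0, 0 and 2 in the poor ones. The summed level of the list went the other way, at 172.8 to 226.4 CPM in the rich and 215.2 to 395.5 CPM in the poor libraries, most of it from Clu, which many tissues express and which was called lower (-0.55, SE 0.12, and not without anti-PD-1 + anti-CTLA-4 B or APG-157 A). The 3 called higher were Pglyrp1 (1.75, SE 0.23) and the lymphotoxins Ltb (2.67, SE 0.23) and Lta (2.54, SE 0.40), which T cells also make. The part of lymph node tissue in the other results was not tested.

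Few tumor and stroma genes were called by edgeR. Krt18 and Krt8, keratins of simple epithelium and of many carcinomas, were called lower, Krt18 at 726 ± 123 against 1063 ± 107 CPM (-0.53, SE 0.12) and Krt8 at 633 ± 75.5 against 876 ± 49.6 CPM (-0.44, SE 0.09). Their 5 rich libraries lay below all 5 poor ones. Neither was called without the 3 libraries of highest muscle level, with an anti-CTLA-4 covariate or with 8 libraries per set, and Krt18 was not called without anti-PD-1 + anti-CTLA-4 B or without the triple treatment B. Among the other markers of squamous epithelium, Krt5 had 0 counts in the rich libraries and 3 counts in the poor ones, and Krt14 had 8 and 19. Of 17 epithelial genes 7 passed the filter, and Krt16, a keratin of stressed epidermis, was the 1 called higher, from 0.346 to 1.11 CPM against 0 to 0.295 CPM (not without anti-PD-1 + anti-CTLA-4 B or APG-157 A). Vim, a mesenchymal filament, was among the most abundant genes of the tumors, at 4660 ± 298 against 4737 ± 640 CPM. Of 18 collagen and matrix genes 1 was called lower, Col6a1 (-0.51, SE 0.14, and in 2 of 10 fits with 1 library left out), and none higher, with a median of -0.14. Of these 18 fold changes 5 were positive, 7 genes had an unadjusted p under 0.05, and DESeq2 called 4. Fn1 was at 2604 ± 701 against 3715 ± 624 CPM and was not called. None of 14 TGF-beta pathway genes, of 7 Wnt target genes tested of 12 listed, of 10 genes of epithelial-mesenchymal transition, of 17 glycolysis and hypoxia genes, of 9 mitochondrially encoded genes, of 5 red blood cell genes of 8 listed or of 8 immediate early genes was called by edgeR. With the 18 muscle genes described next, these 8 lists held 88 genes, of which 11 had an unadjusted p under 0.05 and 2 were called by DESeq2. Without the muscle list, their medians lay from -0.59 for the red blood cell list to 0.12 for glycolysis and hypoxia. Mki67 was the 1 gene called, as lower, among 18 proliferation genes, at 384 ± 28.6 against 491 ± 51.4 CPM (-0.33, SE 0.09). It was called in 2 of 10 fits with 1 library left out and in none of those with the replicate block, an anti-CTLA-4 covariate, 8 libraries per set or the 3 muscle libraries left out. Of the 18 proliferation fold changes 1 was positive, and DESeq2 called 3 of these genes.

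Of 12 endothelial genes 3 were called higher, each with a difference near 0.67 such as Pecam1 (0.67, SE 0.15), and 1 of the 12 was called without the 3 muscle libraries, with an anti-CTLA-4 covariate or with the replicate block. Pecam1 was not called without the triple treatment A or without APG-157 A, and Plvap was called in 2 of 10 fits with 1 library left out. Of 12 fibroblast and mural cell genes, Thy1 alone was called. Skeletal muscle RNA was present in unequal amounts, and where it came from was not tested. Acta1, the actin of skeletal muscle, was at 13.5, 1179, 0.927, 27.0 and 1461 CPM in the rich and at 10.4, 0.354, 8.16, 0.339 and 557.7 CPM in the poor libraries. The triple treatment A and APG-157 + anti-PD-1 A of the rich set and anti-CTLA-4 B of the poor set thus held the most muscle RNA. None of 18 muscle genes was called by edgeR, although their median was 2.33, and their part in the other results was not tested. The summed level of the muscle list was 137.5 to 7138 CPM in the rich and 137.5 to 2627 CPM in the poor libraries. Without the 3 named libraries, 604 genes were called higher and 145 lower. All 20 interferon gamma genes, 19 of 20 T cell signaling genes and 7 of 11 MHC class II genes were called there. The class II genes not called were H2-Aa, Cd74, H2-Eb1 and Ciita. Of 9 adipocyte genes tested, of 12 listed, 1 was called higher, Fabp4 (0.82, SE 0.19, and in 5 of 10 fits with 1 library left out).

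Among the libraries between the sets, those of APG-157 + anti-CTLA-4 stood apart in several of these genes, which are named here after their values were seen. Their Cd3e was in the middle of the order (7.90 and 7.52 CPM for B and A). Gzmb was at 33.0 and 31.9 CPM in them, against 4.95 to 11.7 CPM in the other 4 libraries between the sets and 14.2 to 79.8 CPM in the rich set. Acod1 was at 91.3 and 91.7 CPM, against 5.21 to 13.4 CPM in the other 4. In both genes the pair thus lay within the range of the rich libraries, while its Cd3e did not. Its mean log2 level of the interferon gamma list was 6.73 and 6.71 (B and A), also within the rich range of 6.28 to 7.50. The other 4 libraries between the sets lay from 4.87 to 5.59. Its levels of T cell signaling (1.44 and 1.54) and MHC class II (6.52 and 6.57) lay below the rich ranges, which began at 2.50 and 7.19. The pair was also much alike, with a spread between its libraries of 2.56% against 9.04% to 35.5% in the other 9 groups. The variance of its counts was 1.76 times their mean at the median gene, against 8.12 to 88.7 times in the other groups. The study's text speaks of a small tumor available from this group for other assays. Whether both libraries came from the same tumor was not tested. They are in neither set, and with the pair taken as 1 sample edgeR called 0 slopes and the difference in Cd3e for anti-PD-1 was 1.82 (exact permutation p = 0.0504, adjusted p = 0.151).

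Beyond the lists, the largest differences among genes called, not overlapping and at a mean of at least 1 CPM were led by Ly6i, a member of the Ly6 family of surface proteins. It was at 23.1, 15.04, 8.00, 6.05 and 1.44 CPM in the rich libraries and at 0.128, 0.277, 0.109, 0.0339 and 0.0686 CPM in the poor ones (6.47, SE 0.84), and its reads may be shared with other Ly6 genes. The next were Inpp5j (4.94, SE 0.63), a phosphoinositide phosphatase, Gbp8 (4.73, SE 0.74), a guanylate-binding protein, and then Gzmk and Ifng. Serpina3f (4.05, SE 0.48), Retnla (4.00, SE 0.97), a secreted product of alternatively activated macrophages, Calhm6 (3.99, SE 0.50), Tcrg-C2 (3.95, SE 0.73), a constant region of the gamma chain of gamma-delta T cells, and Tgtp1 completed the 10 largest. All 10 lay between 3.94 and 6.47, and Retnla was called in 3 of 10 fits with 1 library left out.

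In the other direction, Ambp, which encodes the precursor of alpha-1-microglobulin and bikunin, was at 0.57, 0.439, 0.544, 0.433 and 0.71 CPM in the rich libraries and at 2.29, 11.9, 14.1, 1.51 and 15.8 CPM in the poor ones (-4.06, SE 0.67). Fcrls, a marker of resident macrophages and microglia, was at 12.8, 8.48, 17.6, 14.01 and 28.3 CPM against 133, 59.1, 90.5, 185 and 143 CPM (-2.90, SE 0.39). Both were low in every rich library, and the poor libraries differed among themselves more for Ambp than for Fcrls. With the 3 libraries of highest muscle level left out, Fcrls was called and Ambp was not. Rgs18, a regulator of G protein signaling in blood cells, followed at -1.42 (SE 0.23). The other 7 were Gm43197, Nol4, Gm47547, Ccn4, Bank1, Gpr183 and Ankrd34a, from -1.24 for Gm43197 to -1.002 for Ankrd34a. Gm43197 was called in 4 of 10 fits with 1 library left out, Bank1 in 3, Ccn4 in 7 and Ankrd34a in 9. Ccn4, a matricellular Wnt target, was at 70.2 ± 18.9 against 147 ± 50.7 CPM, and Gpr183, a receptor that positions immune cells, at 10.9 ± 2.33 against 22.2 ± 2.56 CPM.

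**Figure D4:**
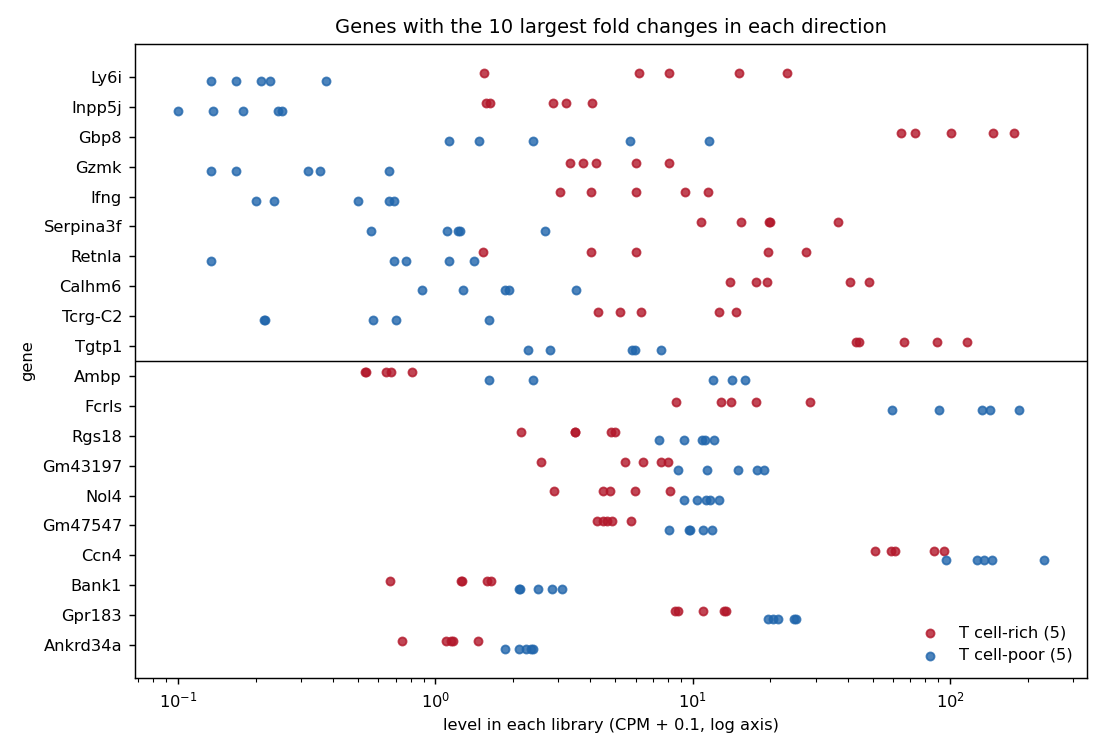
Level of each of the 10 genes of largest positive and 10 of largest negative log2 fold change in the 5 T cell-rich and 5 T cell-poor libraries (CPM + 0.1, log axis), 1 point per library. The sets do not overlap in any of the 20 genes, which the choice of genes required, and the 10 upper differences (3.94 to 6.47) exceed in size all lower ones but that of Ambp (-4.06).

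Within a treatment, 2 pairs of libraries spanned both sets. From anti-CTLA-4 B to A the mean log2 level was higher by 3.17 for T cell signaling, by 3.45 for MHC class II, by 3.15 for the interferon gamma response and by 2.37 for cytotoxic effectors. From B to A of the triple treatment the same lists were higher by 2.55, 3.40, 2.31 and 2.01. The muscle list went in opposite directions, by -6.81 and 9.12. Collagen and matrix genes differed by -0.39 and -0.02. There is 1 library per set and treatment here, and no test.

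The 10 libraries not chosen gave a test that the choice of the sets did not use. There, each gene was fitted by edgeR on log2 of Cd3e, with a term for anti-CD8 treatment. The slope is the change in log2 level per doubling of Cd3e. Cd3e was at 1.02 and 1.43 CPM with anti-CD8 alone and at 3.93 and 3.48 CPM in the anti-CD8 combination. Among these 4 libraries a slope thus cannot be told apart from the added APG-157 + anti-CTLA-4. In the 6 libraries between the sets, Cd3e spanned 6.08 to 10.3 CPM. At an adjusted p under 0.05, 0 of 18580 genes other than Cd3e passed, a share of 0%, while 2304 (12.4%) had an unadjusted p under 0.05 with a positive and 1529 (8.23%) with a negative slope. DESeq2 called 896 positive and 194 negative slopes at an adjusted p under 0.05.

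T cell and MHC class II genes had positive slopes in these libraries too. At an unadjusted p under 0.05, 18 of 20 T cell signaling genes and 5 of 6 CD3 and receptor genes had a positive slope, against 12.4% of all genes, and their median slopes were 0.88 and 1.08. Cd3g had a slope of 1.33 (SE 0.18, adjusted p = 0.0859, edgeR). Of 11 MHC class II genes 9 passed this mark, with a median slope of 1.31, led by H2-Aa at 1.79 (SE 0.25, adjusted p = 0.0859, edgeR). For H2-Aa, the anti-CD8 libraries alone were at 71.4 and 98.1 CPM and those with APG-157 + anti-CTLA-4 added at 437.5 and 791.7 CPM, while the 6 between the sets lay from 489.3 to 953.7 CPM. MHC class I had 9 of 13 genes at a median slope of 0.35.

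Of 20 interferon gamma response genes, 10 had a positive slope at this mark and all 20 fitted slopes were above 0 (median 0.90). Cxcl9 had a slope of 2.10 (SE 0.69, adjusted p = 0.233, edgeR), with 420 and 404 CPM in replicates B and A of APG-157 + anti-CTLA-4 against 57.3 to 150 CPM in the 4 others between the sets. None of the 16 type I interferon response genes had an unadjusted p under 0.05, and the median slope was 0.03. Cytotoxic effectors were divided: 9 of 18 had a positive slope at this mark, while Gzmb and Prf1 had slopes of 0.07 (SE 0.66) and 0.16 (SE 0.69). Ambp was negative again, at -1.61 (SE 0.50, adjusted p = 0.233, edgeR), and Fcrls at -0.37 (SE 0.66).

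A single library weighed on the slopes. Replicate B of the anti-CD8 combination held 338 CPM of Adipoq, a hormone of fat cells, against at most 0.768 CPM in the other 9, and all 10 adipocyte genes had a positive slope at an unadjusted p under 0.05 (median 4.52). Without it, edgeR called 8 positive slopes, the share of genes with a positive slope at an unadjusted p under 0.05 was 4.07%, and 0 of 9 adipocyte genes were among them. At this mark there were then 18 of 20 T cell signaling genes, 9 of 11 MHC class II genes and 9 of 13 class I genes, but 1 of 20 interferon gamma response genes. Without replicate A of the same group, edgeR called 2553 positive and 1908 negative slopes. In the 6 libraries between the sets alone, where Cd3e spanned 6.08 to 10.3 CPM, 1.48% of genes had a positive slope at this mark, with 8 of 20 T cell signaling genes, 5 of 11 MHC class II genes and none of the 20 interferon gamma or 13 class I genes.

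**Figure D5:**
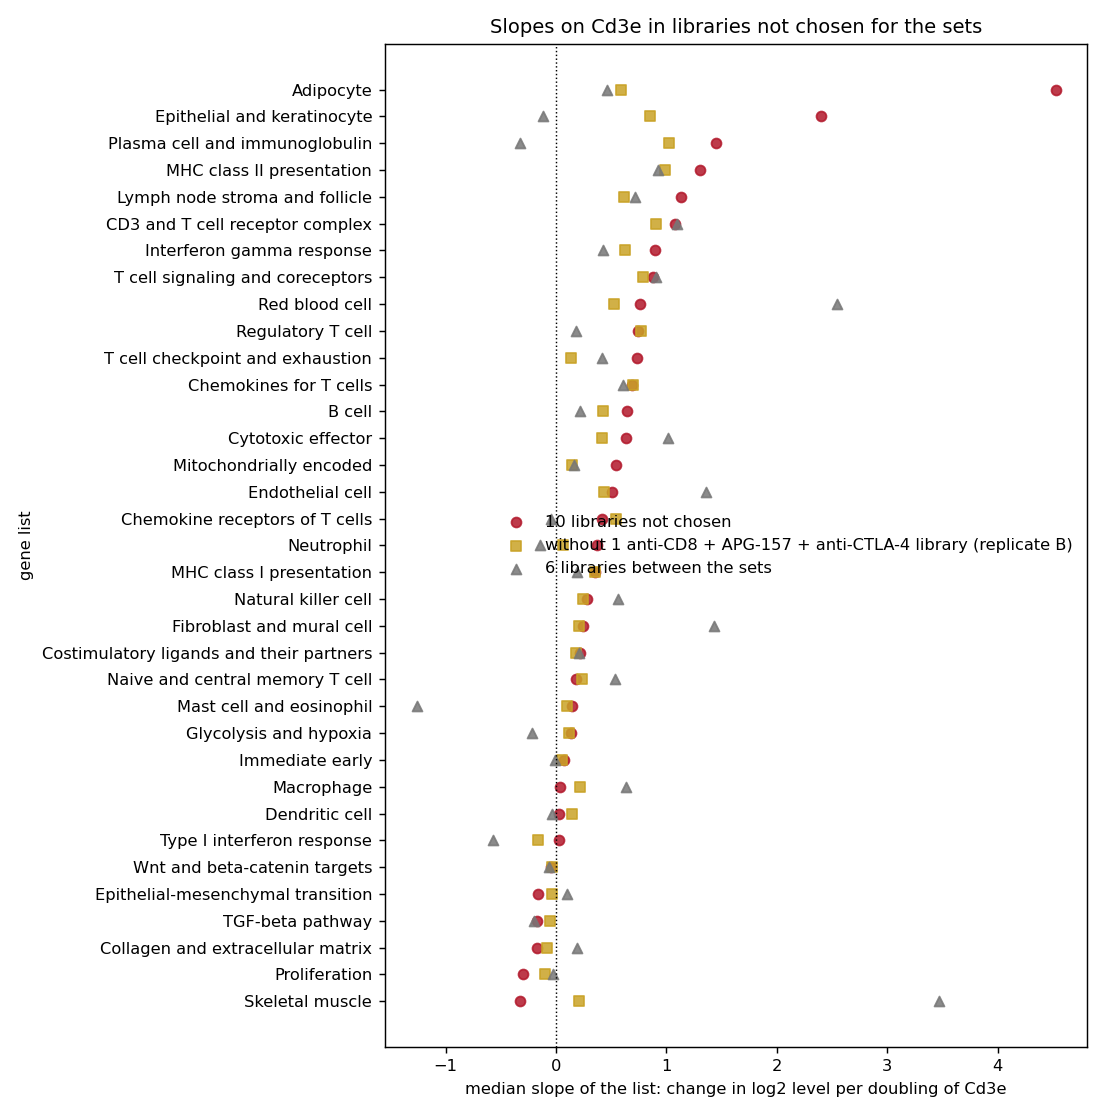
Median slope on Cd3e (change in log2 level per doubling of Cd3e) of each of 35 gene lists in the libraries not chosen: all 10 (circles), leaving out the anti-CD8 combination B (squares), and the 6 between the sets (triangles). The T cell signaling, CD3 and MHC class II lists stay near 0.79 to 1.31 in all 3 fits, while the adipocyte list goes from 4.52 to 0.59 without that library.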

How the data were processed

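The samples were mRNA libraries of subcutaneous SCCVII tumors, 20 in 10 groups of 2. The authors deposited an expected count per gene, estimated with Salmon 1.5.0 on GRCm39 after trimming with Trimmomatic 0.39 per the submitters' notes, without scaling for depth. A table of log2 values from the same counts was not used. The count table held 54309 genes, 51484 with a symbol, and 71.5% of its values were whole. Totals were 43.9 to 72.1 in units of 1e6 counts (median 54.9). Levels of low genes rest on few counts, and the SDs include this counting error.

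Counts were rounded, filtered by filterByExpr (minimum count 10, minimum total 15) and scaled by TMM. The sets (5 and 5 of 16 libraries, by Cd3e in CPM of the column total) were fitted by edgeR's quasi-likelihood model with set as the only term, on these 10 libraries. Calls used an adjusted p under 0.05 (Benjamini-Hochberg). In the 10 other libraries, edgeR was fitted on log2 of Cd3e CPM plus 0.1 with a term for anti-CD8. Cd3e was compared by agent with an exact two-sided permutation test over 16 libraries. List levels are means of log2(CPM + 0.1). The fits were tested on simulated data.

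The members and the 35 gene lists were chosen with earlier results of these data known. Genes are named by a rule: all CD3 and receptor genes, for other lists the 4 most abundant members and those of largest positive and negative fold change, and the 10 largest differences in each direction among called genes with sets apart and a mean of at least 1 CPM. Other list members (such as Cd4, Tox, Lag3, Foxp3, Ciita, Igtp, Tap1, Isg15, Lta, Krt5, Krt14 and the vessel genes) and Adipoq were named after their values were seen. The 4 printed sequences and the motifs searched were also chosen after values were seen.

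Alternatives were RLE factors, other filters and fold minimums, DESeq2, sets of 4, 6 or 8, other orderings, a slope over all 16, a replicate block, anti-CTLA-4 and skeletal muscle covariates, and each library left out. Leaving out the 3 libraries of highest muscle level, and summing the APG-157 + anti-CTLA-4 pair, were chosen after seeing the data. Some genes share reads with near-identical copies (Gbp, Ly6, Klr, Trbc and H2 families), which the estimation may split. The software was Python 3.11.15 with numpy 2.4.6, scipy 1.17.1, pandas 2.3.3 and matplotlib 3.10.9, and R 4.3.3 with DESeq2 1.42.0, edgeR 4.0.16 and limma 3.58.1.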

Additional observations from a re-analysis of the deposited data

Results flagged for a closer look

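Of 140 groups of 4 to 6 libraries in which the mean log2 level of a gene list was compared, 6 held a library far from the others by Dixon's criterion. Chance alone gives about 1 such group in 20. Of the T cell-rich libraries, anti-PD-1 + anti-CTLA-4 A stood at 8.29 for glycolysis and hypoxia genes, and the 4 others lay from 6.68 to 7.10. Of the T cell-poor libraries, control A stood at 2.18 for dendritic cell genes (others 1.71 to 1.84), and the triple treatment B stood at -0.57 for mast cell and eosinophil genes (others 0.22 to 0.51). Between the sets, APG-157 + anti-CTLA-4 A stood at 2.17 for chemokine receptors (others 2.39 to 2.50). Among the anti-CD8 libraries, replicate B of the combination stood at 5.42 for TGF-beta pathway genes (others 6.04 to 6.13) and at 3.04 for Wnt targets (others 1.43 to 1.499).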

How the results depend on the processing

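Numbers of genes called higher and lower in the T cell-rich set (1032 and 413) became 636 and 22 with a log2 fold change over 1, 271 and 4 with one over 2, and 1559 and 964 with DESeq2. Without a low-count filter 259 were lower. With 4 libraries per set 201 were lower, with 6 per set 686, and with 8 per set 488 were higher and 96 lower. They were 643 and 123 with an anti-CTLA-4 covariate and 604 and 145 without the 3 libraries of highest muscle level. With the anti-CTLA-4 covariate, Cd274, Pdcd1lg2, Trbc1, Igkc, Oasl2 and Isg15 were among the genes named above that were not called. Leaving out 1 library gave 654 to 1059 higher and 94 to 422 lower. Genes whose sets did not overlap (954 higher, 650 lower) became 1247 lower with 4 per set, 564 and 342 with 6, 28 and 7 with 8, and 2099 lower without the 3 muscle libraries. With 1 library left out 672 to 1133 lay lower, over 1.5 times the first value without APG-157 + anti-PD-1 A (1051), anti-CTLA-4 B (1133) or APG-157 B (1023). In part these changes follow from the number of libraries. Of 4318 values of named genes under alternatives, 264 moved by at least 1 standard error.

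With 8 per set, 3 of 11 regulatory T cell genes, 9 of 18 cytotoxic genes, 6 of 11 checkpoint genes, 3 of 9 T cell chemokines, 1 of 6 mast cell genes and none of 6 plasma cell, 16 type I interferon or 10 costimulatory genes were called by edgeR, the cause of which was not tested.

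Slopes called by edgeR in the libraries not chosen (0 positive, 0 negative) became 896 and 194 with DESeq2, 30 positive without the anti-CD8 term and 18 positive with CD3 and receptor genes in place of Cd3e. Leaving out 1 library gave 0 to 2553 positive and 0 to 1908 negative slopes. The highest of these came without replicate A of the anti-CD8 combination, and 8 positive slopes came without its replicate B. The cause was not tested.

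The difference in Cd3e for anti-PD-1 was 1.41 to 2.11 with 1 library left out, and it passed the adjusted threshold without anti-CTLA-4 A alone. For APG-157 it was -1.24 to -0.44 and for anti-CTLA-4 0.85 to 1.65, with no pass.

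Whether replicate letters pair the libraries cannot be told from the correlations below, whose ranges overlap. Correlations of deviations across the sets were -0.52 to 0.39 for the same letter (median 0.01, 11 pairs) and -0.56 to 0.64 for the other letter (median 0.14, 14 pairs). With the replicate block, 945 genes were called higher and 532 lower, 0 slopes were called, and the adjusted exact permutation p was 0.234 for anti-PD-1. With the APG-157 + anti-CTLA-4 pair summed, 0 slopes were called by edgeR. With the pair as its mean, the differences in Cd3e were 1.82 for anti-PD-1 (exact permutation p = 0.0504), 1.25 for anti-CTLA-4 and -0.83 for APG-157. Neither library is in a set.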

Other observations

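The sets were drawn from measured Cd3e, so their contrast describes these 10 libraries and tests no treatment. Each set mixes 3 or more treatments. In a bulk library, a difference in Cd3e does not separate T cell number from T cell RNA per cell. The 10 libraries not chosen cover a narrower range of Cd3e, from 1.02 to 10.3 CPM against 0.992 to 48.0 CPM. Of these, 4 had CD8+ T cells removed, with Cd8a at 0.125 to 0.362 CPM. With the anti-CD8 term, the slope used Cd3e within each part, 1.02 to 3.93 CPM with anti-CD8 and 6.08 to 10.3 CPM without.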
